A study of Mus musculus with 18 samples.

Results

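Liver RNA from mice given recombinant GDF15 was compared with liver RNA from mice given vehicle, 6 livers against 6, across every gene with at least 10 counts in at least 6 of these 12 libraries. Of the 16245 genes in the table, 12816 met that rule, and they are described here by the liver cell type they mark and by the pathway they belong to. The animals of both groups were wild-type male C57BL/6 mice, kept one to a cage at about 29 °C on a palm fat, fructose and cholesterol diet (the NASH diet) that began at 8 weeks of age. GDF15 was injected under the skin once a day, the treated mice were randomised against controls on body weight and composition, and the mice were killed in the fed state. The protocol lists doses of 0.3, 1 and 5 nmol/kg and the sample labels do not say which of them these 6 mice received. The vehicle mice ate freely, and a further group of 6 livers, from mice fed the amount the GDF15 mice ate, entered the statistical model for its share of the spread but is not compared here. Lower food intake is therefore part of the difference between GDF15 and vehicle, and the injected protein and the lower intake cannot be told apart in this comparison.

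GDF15 is a stress-induced hormone of the TGF-beta superfamily whose receptor, GFRAL with its partner RET, sits in the hindbrain. The liver answers to feeding, body fat and hormones mainly through hepatocytes, which make most plasma proteins, bile acids, glucose and urea and which clear drugs, while endothelial, stellate, biliary and immune cells make up the remainder. In fatty liver disease injured hepatocytes lose some of these functions and switch on cytoskeletal, calcium-binding and repair genes, and some of the other cell types can expand.

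Library totals ranged from 16508864 to 25001486 estimated counts and did not separate the groups (exact permutation test, two-sided p = 0.628, 6 against 6). Values below are normalised read counts, that is, counts divided by the library's size factor, and each log2 fold change is GDF15 against vehicle with its standard error after the ± sign. Within the GDF15 group, replicate 4 was set apart from the other 5 livers in more genes than any other library, 292 of 12816 or 2.28%, against 0.312% to 1.42% for the other GDF15 livers and 0.336% to 1.61% for the vehicle livers. Saa1, a serum amyloid A acute phase gene, reached 68458 in that liver and 407 in GDF15 replicate 6, against 2933 to 5779 in the vehicle livers, and GDF15 replicate 6 held the highest level of Mup1 and Mup7, which encode major urinary proteins. Results that rest on either library are given with and without it.

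Across the 12816 genes, 2333 (18.2%) were lower and 2305 (18%) were higher in GDF15 livers at an adjusted p under 0.05 (36.2% in all), by the DESeq2 Wald test with Benjamini-Hochberg adjustment. The adjustment was made over the whole table with DESeq2's independent filtering, which can leave out genes of low mean count. With a further requirement of a log2 fold change beyond 1, 564 genes (4.4%) were lower and 117 (0.913%) were higher. The median log2 fold change over all genes was 0.02. Scaling to total counts moved that median to -0.15, a shift of -0.17, and under it 4607 genes (35.9%) were lower and 711 (5.55%) higher, so that 13.4% of the genes called were higher against 49.7% with the main scaling. The median of a gene list is therefore given with its value under total counts wherever its sign turns, and list counts wherever the direction with more calls turns. List counts below are of genes at an adjusted p under 0.05, to be read against 18.2% lower and 18% higher among all genes, and those of 1 or 2 genes often changed when 1 library was left out. The lists were chosen with earlier results of these data known, so their counts are not independent of those results.

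Among genes past both thresholds with a mean of at least 100 normalised counts, all 6 GDF15 livers lay on one side of all 6 vehicle livers for 133 lower and 45 higher genes. Over all 12816 members, with no threshold and no minimum count applied, the groups did not overlap for 965 lower genes (7.53%) and 841 higher genes (6.56%). The 12 largest of these falls included Sprr1a, a cornified envelope gene of stressed epithelia, and Ly6d, a surface protein of the Ly6 family. Ly6d stood, as lowest, median and highest of 6, at 941, 1655 and 3184 in the vehicle livers against 40.98, 169 and 805 in the GDF15 livers. The groups did not overlap, and the highest GDF15 value was that of replicate 4 (log2 fold change -2.97 ± 0.62, adjusted p = 2.05e-05, and -3.86 without that liver). Cidea, a lipid droplet protein best known from brown fat, stood at 371, 578 and 721 in the vehicle livers against 14.1, 64.3 and 89.9 in the GDF15 livers. Every GDF15 liver was far below every vehicle liver (-3.28 ± 0.40, adjusted p = 8.28e-14). Themis, a signalling protein of developing T cells, stood at 215, 370.2 and 480.4 in the vehicle livers against 14.1, 44.4 and 91.1 in the GDF15 livers, again without overlap (-2.91 ± 0.36, adjusted p = 7.15e-14). Among the GDF15 livers, Themis lay between 59.8 and 91.1 in replicates 1 to 3 and between 14.1 and 28.9 in replicates 4 to 6. Its log2 fold change was -2.15 in replicates 1 to 3 of both groups and -4.15 in replicates 4 to 6. Sprr1a divided the same way, with at least 7.23 in GDF15 replicates 1 to 3 and at most 3.897 in replicates 4 to 6. For Ly6d and Cidea these subsets overlapped, and the cause of the division was not tested. Fam83a (-3.11 ± 0.39), Cib3, a calcium and integrin binding protein (-2.998 ± 0.29), and Ephb2, an ephrin receptor (-2.71 ± 0.32), also fell without overlap.

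**Figure D1:**
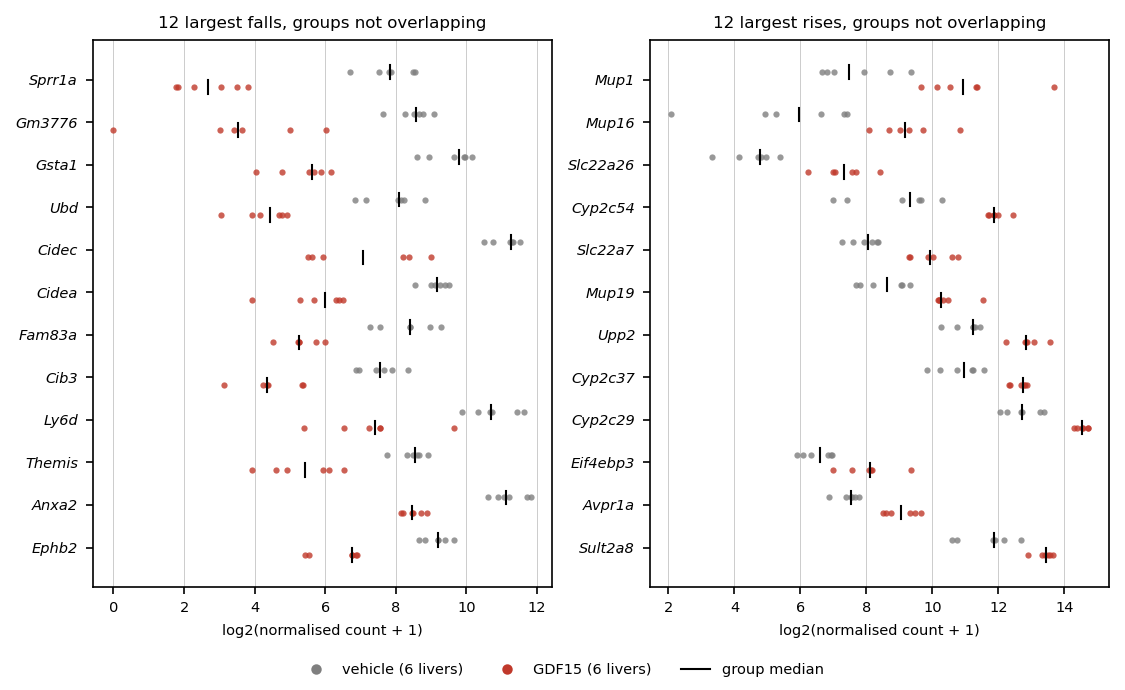
Normalised counts, as log2(count + 1) on the horizontal axis, of the 12 genes with the largest falls (left) and the 12 with the largest rises (right). They are ranked among genes past both thresholds, with a mean of at least 100 normalised counts, whose groups did not overlap. Each point is 1 liver, grey for vehicle and red for GDF15, and the black tick is the group median. Sprr1a, Gm3776 and Gsta1 head the falls by log2 fold change, and Mup1 and Mup16 head the rises.

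The 12 largest rises included hepatocyte genes of secretion, transport and drug or nucleoside metabolism. Mup1, a major urinary protein that carries pheromones, stood at 98.98, 185 and 654 in the vehicle livers against 804, 2016 and 13110.2 in the GDF15 livers. The highest of the GDF15 livers was replicate 6 (3.71 ± 0.66, adjusted p = 5.98e-07, and 2.64 without it), and reads of this near-identical gene family can be split between its copies in the counting. Upp2, a uridine phosphorylase, stood at 1221, 2402 and 2784 in the vehicle livers against 4850.5, 7387 and 12089.6 in the GDF15 livers. The 6 GDF15 values lay apart from the 6 vehicle values (1.86 ± 0.40, adjusted p = 4.02e-05). Eif4ebp3, a repressor of cap-dependent translation, stood at 58.3, 96.6 and 122 in the vehicle livers against 126, 276 and 656 in the GDF15 livers (1.69 ± 0.37, adjusted p = 6.63e-05). Sult2a8, a bile acid sulfotransferase of mouse liver, stood at 1528, 3734 and 6532 in the vehicle livers against 7624, 11225 and 12779 in the GDF15 livers (1.58 ± 0.34, adjusted p = 4.54e-05). All 6 GDF15 livers were higher in each of these genes, and the plot of the largest changes shows the gaps.

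Genes that injured or dedifferentiated hepatocytes switch on fell almost throughout. Of 26 tested, 24 fell and none rose, with a median log2 fold change of -1.17. The 12 fits that each left out 1 library gave 24 to 25 falls. This list was chosen with earlier results of these data known. It holds Sprr1a, Ly6d and Anxa2, which are also among the 12 largest falls, so its count is not independent of them. Anxa2, an annexin that binds membranes and calcium, stood at 1554, 2248 and 3659 in the vehicle livers against 283, 353 and 469.8 in the GDF15 livers. The groups did not overlap and the fall was 6.90-fold (-2.79 ± 0.32, adjusted p = 2.16e-15). S100a11, a small calcium-binding protein, fell by 4.90-fold (-2.29 ± 0.23), and Anxa5, the annexin that binds exposed phosphatidylserine, by 3.27-fold (-1.71 ± 0.16). Lgals1 and Lgals3, the galectins 1 and 3, fell (-1.75 ± 0.16 and -1.79 ± 0.28). Tnfrsf12a, the TWEAK receptor, fell (-1.21 ± 0.24, adjusted p = 1.13e-05).

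Cytoskeletal members of the same list fell with them. Tubb2a, a beta-tubulin, stood at 7454, 9703 and 11246 in the vehicle livers against 1358, 3546 and 5289 in the GDF15 livers. No GDF15 liver reached the lowest vehicle liver (-1.51 ± 0.41, adjusted p = 0.00165). Krt8 and Krt18, the keratin pair of hepatocytes, fell by less (-0.90 ± 0.14 and -0.65 ± 0.13), and so did Vim, the vimentin of mesenchymal cells (-0.83 ± 0.15). Afp, the fetal albumin-like protein, fell at a low level (30.2 to 46.1 in the vehicle livers and 11.7 to 30.7 in the GDF15 livers, -0.91 ± 0.23, adjusted p = 7.27e-04). The 2 members tested that did not pass were Gpc3, a glypican of hepatocellular cancer (-0.73 ± 0.39, adjusted p = 0.135), and Krt23 (-0.71 ± 0.30, adjusted p = 0.0583). Bile duct, mesenchymal and myeloid cells also make several of these proteins, and the cholangiocyte, stellate and monocyte lists had medians of -1.15, -0.48 and -0.58 in the same livers. Their part in the falls was not tested.

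Genes that define differentiated hepatocytes rose or did not pass. Of 22 hepatocyte identity genes, 11 rose and none fell (1 fell without GDF15 replicate 4), with a median of 0.30 (0.14 with total counts). Hnf4a, the nuclear receptor that maintains hepatocyte identity, stood at 8613, 9175 and 11189.9 in the vehicle livers against 12805, 13551 and 15222 in the GDF15 livers. Vehicle and GDF15 livers did not overlap (0.54 ± 0.06, adjusted p = 3.93e-15). Ahsg, the secreted protein fetuin-A, rose by 1.56-fold (0.64 ± 0.08, adjusted p = 1.13e-13). Foxa3 and Nr5a2, transcription factors of liver development and bile acid genes, rose (0.51 ± 0.13 and 0.37 ± 0.07). Cebpa, the CCAAT factor of mature hepatocytes, had 0.22 ± 0.12 (adjusted p = 0.156).

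Hepatocytes divide labour along the lobule, with urea synthesis and gluconeogenesis near the portal vein and drug metabolism and glutamine synthesis near the central vein. Periportal genes rose in 14 of 20 and fell in 3 (median 0.45), and pericentral genes rose in 10 of 22 and fell in 2 (median 0.24). Cps1, which starts the urea cycle, stood at 24590.1, 29316 and 47439 in the vehicle livers against 56422, 69871 and 78355 in the GDF15 livers. Each GDF15 liver was above each vehicle liver (1.06 ± 0.15, adjusted p = 3.19e-10). Sds, serine dehydratase, rose (1.16 ± 0.16, adjusted p = 7.33e-11), and so did Hal, histidine ammonia-lyase (1.02 ± 0.16, adjusted p = 2.01e-08). The 3 periportal falls were in Hsd17b13, a lipid droplet enzyme (-0.65 ± 0.10, adjusted p = 1.98e-08), Aldh1b1, a mitochondrial aldehyde dehydrogenase (-0.64 ± 0.11), and Cdh1, E-cadherin (-0.68 ± 0.21).

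On the pericentral side Cyp1a2, a cytochrome of aromatic amine metabolism, stood at 4199, 4505 and 5443 in the vehicle livers against 8057, 9799.6 and 15269 in the GDF15 livers. The ranges stayed apart (1.15 ± 0.13, adjusted p = 4.86e-16). Cyp27a1, the sterol 27-hydroxylase, and Notum, a Wnt-inactivating enzyme, rose (0.76 ± 0.08 and 0.66 ± 0.12). Glul, the glutamine synthetase confined to the central rim, had 0.09 ± 0.06 (adjusted p = 0.234), and Axin2, a direct Wnt target, had -0.08 ± 0.15 (adjusted p = 0.719). The falls were in Rhbg, an ammonium transporter (-0.62 ± 0.14, adjusted p = 7.02e-05), and Aldh3a2, a fatty aldehyde dehydrogenase (-0.60 ± 0.11).

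Biliary genes fell. Of 12 cholangiocyte markers tested, 11 fell and none rose, with a median of -1.15, and the list's summed level ranged from 3295 to 10561 in vehicle livers and from 1724 to 2985 in GDF15 livers. In these bulk samples fewer cells of a type and less RNA per cell cannot be told apart, here and for every cell type below. Spp1, osteopontin, which biliary cells and scar macrophages both make, stood at 2119, 4723 and 7908 in the vehicle livers against 821, 1144 and 1834 in the GDF15 livers. There was no overlap between the groups (-1.99 ± 0.36, adjusted p = 6.60e-07). Most of the summed level was from this gene, and the 11 other genes tested summed to 1049 to 2554 in vehicle livers and 837 to 1129 in GDF15 livers, ranges that overlapped. Epcam, a surface marker of bile duct epithelium, stood at 51.2, 117 and 228 in the vehicle livers against 37.9, 56.1 and 80.6 in the GDF15 livers. The groups overlapped, since the lowest vehicle livers reached the upper GDF15 values (-1.22 ± 0.33, adjusted p = 0.00134). Krt19, a keratin of bile ducts, fell (-1.03 ± 0.35, adjusted p = 0.0137), a call lost without vehicle replicate 1. Muc1, a membrane mucin, and Tspan8, a tetraspanin, fell (-1.68 ± 0.34 and -2.33 ± 0.51).

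**Figure D2:**
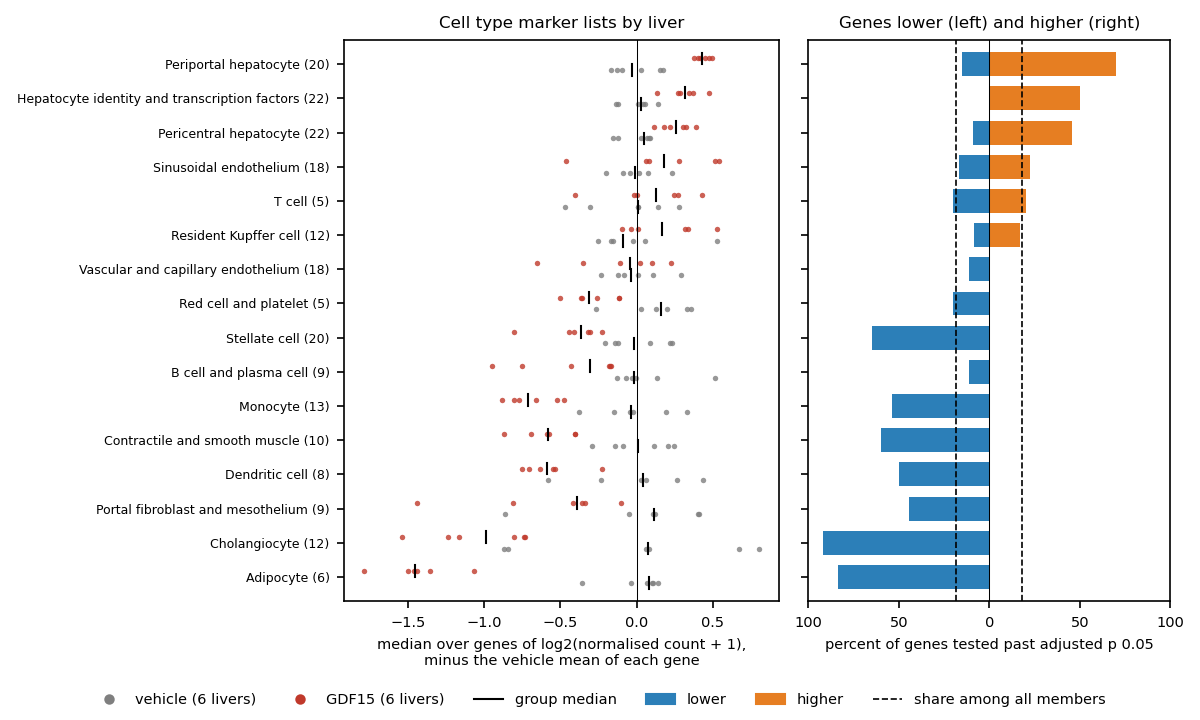
Left, median over the genes of each cell type list of log2(normalised count + 1) minus the vehicle mean of each gene, 1 point per liver (grey vehicle, red GDF15), with the number of genes tested in brackets and lists under 5 genes left out. Right, percent of those genes that passed an adjusted p of 0.05, lower to the left and higher to the right, with dashed lines at the shares among all members (18.2% and 18%). Hepatocyte lists lie right of 0, while adipocyte, cholangiocyte, monocyte and stellate lists lie left. The sign of the T cell and Kupffer medians turns with total count scaling.

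Stellate cells store vitamin A and become the scar-forming cells of injured liver. Of 20 stellate markers 13 fell and none rose (median -0.48), 8 fell when vehicle replicate 1 was left out, and 1 rose without GDF15 replicate 4. Pdgfrb, the PDGF receptor of activated stellate cells, stood at 321, 471 and 601 in the vehicle livers against 182, 243 and 322 in the GDF15 livers. Overlap was limited to the upper GDF15 and lower vehicle values (-0.90 ± 0.16, adjusted p = 5.49e-07). Lrat, which esterifies retinol in quiescent stellate cells, fell (-0.50 ± 0.15, adjusted p = 0.00577). Colec10 and Ecm1, markers of the quiescent cell, had 0.29 ± 0.21 and 0.18 ± 0.14 and neither passed (adjusted p = 0.295 and 0.336). Ecm1 was at 1333 in GDF15 replicate 4, against 2519 to 2911 in the other GDF15 livers. Among contractile genes 6 of 10 fell and none rose (median -0.61), with Tagln, transgelin, at -0.98 ± 0.21, adjusted p = 3.09e-05. Acta2, smooth muscle actin, had -0.84 ± 0.41 (adjusted p = 0.1). Portal fibroblast and mesothelial genes fell in 4 of 9, led by Entpd2, an ectonucleotidase of portal fibroblasts (-1.27 ± 0.15, adjusted p = 1.87e-15).

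Sinusoidal endothelial markers rose in 4 of 18 and fell in 3, counts close to the shares among all genes, and 1 rose and 5 fell with total counts. The number that rose was 9 without GDF15 replicate 4 and 2 without GDF15 replicate 5, and 1 fell without GDF15 replicate 4 or without vehicle replicate 2 or 5. Lyve1, the hyaluronan receptor of sinusoids and lymphatics, stood at 142, 215 and 265 in the vehicle livers against 86.8, 102 and 133 in the GDF15 livers. The 2 ranges did not meet (-0.997 ± 0.16, adjusted p = 1.46e-08). Dnase1l3, a secreted nuclease, rose (0.55 ± 0.15, adjusted p = 0.00214), and Stab2, the scavenger receptor that defines these cells, had -0.18 ± 0.11 (adjusted p = 0.203). Of 18 general endothelial markers 2 fell and none rose. Plvap, the fenestral diaphragm protein, fell (-0.57 ± 0.13, adjusted p = 1.41e-04), with its lowest value, 471, in GDF15 replicate 4, and Pecam1 had -0.07 ± 0.15 (adjusted p = 0.765).

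Monocytes enter the injured liver from blood, and dendritic cells carry antigen out of it. Of 13 monocyte markers 7 fell and none rose (median -0.58, summed level 1822 to 3571 against 1149.9 to 1812). Ccr2, the receptor that draws monocytes from blood, stood at 17.5, 34.03 and 54.2 in the vehicle livers against 5.12, 9.75 and 18.1 in the GDF15 livers, with overlap (-1.83 ± 0.33, adjusted p = 6.70e-07). Cx3cr1, the fractalkine receptor, stood at 122, 156 and 232 in the vehicle livers against 14.5, 48.9 and 80.9 in the GDF15 livers, without overlap (-1.76 ± 0.30, adjusted p = 2.30e-07). S100a4 fell as well (-1.71 ± 0.27, adjusted p = 7.08e-09). Ly6c2, the marker of the inflammatory subset, had -0.07 ± 0.28 (adjusted p = 0.881). Dendritic cell genes fell in 4 of 8 and rose in none, with Itgax, the CD11c integrin, at -1.66 ± 0.27, adjusted p = 3.23e-08.

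Resident Kupffer cell markers rose in 2 of 12 and fell in 1, with a median of 0.11 that turned to -0.07 with total counts. Cd163, the haemoglobin scavenger receptor, stood at 2.08, 37.3 and 84.95 in the vehicle livers against 78.3, 143 and 219.5 in the GDF15 livers. The ranges overlapped (1.89 ± 0.53, adjusted p = 0.00225). Fcna, a ficolin of Kupffer cells, rose (0.98 ± 0.17, adjusted p = 1.95e-07), with 248 in GDF15 replicate 4 against 538 as the group median. Clec4f and Vsig4, defining receptors of these cells, had 0.15 ± 0.18 and -0.06 ± 0.27 (adjusted p = 0.55 and 0.891). Cd5l, a secreted survival factor of Kupffer cells, fell (-0.43 ± 0.18, adjusted p = 0.0496), a call lost without vehicle replicate 1, 2, 4 or 5 or GDF15 replicate 2, 4 or 6.

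Lymphocyte genes were mostly too low to describe. Only 5 of 20 T cell markers in the table reached the counting rule, and Cd3e, Cd3g and Cd3d did not. Themis stood at 215 to 480.4 in the vehicle livers although these Cd3 genes missed the rule, and which cells made it was not tested. Beside the fall of Themis, Zap70, a kinase of the T cell receptor, rose (0.52 ± 0.18, adjusted p = 0.0128). None of 4 cytotoxic lymphocyte genes passed, and Klrk1 had -0.45 ± 0.28 (adjusted p = 0.207). Of 9 B cell genes only Ms4a1, CD20, fell (-0.82 ± 0.33, adjusted p = 0.0381), a call lost without vehicle replicate 1, 4, 5 or 6 or GDF15 replicate 1, 2 or 4, and Cd79a had -0.67 ± 0.32 (adjusted p = 0.0844). Csf3r, the G-CSF receptor of neutrophils, fell (-0.81 ± 0.24, adjusted p = 0.00362), whereas S100a8 and S100a9, their defining genes, were under the counting rule. Pf4, a platelet chemokine, fell (-0.97 ± 0.27, adjusted p = 0.00236), as 1 of 5 red cell and platelet genes. Of 3 Schwann cell and nerve genes 1 fell, and neither the 2 mast cell genes nor the 1 gene of pancreas and skeletal muscle passed.

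Genes shared with adipocytes fell in 5 of 6 and rose in none (median -1.44). The genes that define adipocytes, Adipoq, Plin1, Retn and Adig, were all under the counting rule, with Adipoq at 0 in every GDF15 liver and at most 1.16 in a vehicle liver, and Plin1 at 0 to 2.55 in the vehicle livers and 0 to 3.07 in the GDF15 livers. Pparg, the nuclear receptor that drives fat storage, stood at 551, 648 and 738 in the vehicle livers against 257, 309.8 and 398 in the GDF15 livers. No vehicle liver reached the GDF15 range (-1.05 ± 0.11, adjusted p = 1.50e-18). Lpl, lipoprotein lipase, fell (-1.66 ± 0.25, adjusted p = 1.82e-09), and Fabp4, a fatty acid carrier, fell (-1.22 ± 0.21, adjusted p = 1.05e-07). Lipe, hormone-sensitive lipase, had 0.15 ± 0.23 (adjusted p = 0.647).

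Cytochrome P450 genes of drug metabolism rose in 20 of 35 and fell in 3, with a median of 0.39. The number that fell was 1 without vehicle replicate 6 and 5 without GDF15 replicate 3. Cyp2c23, an arachidonic acid epoxygenase, stood at 1398, 2136 and 3041 in the vehicle livers against 4758, 5155 and 6771 in the GDF15 livers. The 6 GDF15 values lay apart from the 6 vehicle values (1.30 ± 0.18, adjusted p = 4.16e-11). Cyp2b10, the standard target of the constitutive androstane receptor, stood at 4.24, 14.1 and 51.1 in the vehicle livers against 28.9, 72.6 and 322 in the GDF15 livers, with overlap (2.62 ± 0.60, adjusted p = 1.28e-04). The gene of that receptor, Nr1i3, rose (0.69 ± 0.27, adjusted p = 0.0329), a call lost without replicate 1, 2 or 3 of either group. Por, the electron donor of all microsomal P450 enzymes, rose (0.99 ± 0.35, adjusted p = 0.0193), a call lost without vehicle replicate 1 or GDF15 replicate 2 or 3. Cyp3a11, the main steroid and drug hydroxylase, went the other way (-0.42 ± 0.17, adjusted p = 0.0458), a call lost without vehicle replicate 1, 2, 4, 5 or 6 or GDF15 replicate 4, 5 or 6, and Cyp2a22 fell (-1.71 ± 0.48, adjusted p = 0.0021).

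Of 24 conjugating enzymes of glucuronidation and sulfation 11 rose and 3 fell (median 0.19). Sult5a1 rose (1.31 ± 0.28, adjusted p = 4.41e-05), and Sult1a1, the phenol sulfotransferase, rose without overlap (0.62 ± 0.11, adjusted p = 2.05e-07). Ugdh, which makes the glucuronic acid donor, stood at 5279.6, 5682 and 6489 in the vehicle livers against 3233, 3669.9 and 4827 in the GDF15 livers. It fell without overlap (-0.61 ± 0.11, adjusted p = 7.44e-07). Glutathione transferases and targets of NRF2, the oxidant-sensing factor, fell in 17 of 31 and rose in 5 (median -0.36). Cbr3, a carbonyl reductase, stood at 69.8, 106 and 177 in the vehicle livers against 8.44, 14.2 and 18.6 in the GDF15 livers. The groups were far apart (-3.02 ± 0.35, adjusted p = 7.96e-16). Gstm3 fell (-1.83 ± 0.36, adjusted p = 8.09e-06), Srxn1, sulfiredoxin, fell (-1.10 ± 0.13, adjusted p = 3.17e-15), and Nqo1, the quinone reductase, fell (-0.82 ± 0.16, adjusted p = 6.33e-06). Nfe2l2, the NRF2 gene itself, fell without overlap (-0.41 ± 0.10, adjusted p = 2.41e-04). Gstt3 and Gsto1 rose (0.64 ± 0.20 and 0.42 ± 0.10), and Gclm, the glutamate-cysteine ligase modifier, had 0.00 ± 0.04 (adjusted p = 0.987).

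Carboxylesterases, which split esters of drugs and lipids, rose in 6 of 14 and fell in 1. Ces2a stood at 1266, 1658 and 2096 in the vehicle livers against 2849, 3313 and 4184 in the GDF15 livers. Vehicle and GDF15 livers did not overlap (1.05 ± 0.16, adjusted p = 8.94e-09). Ces3b rose with overlap (1.31 ± 0.39, adjusted p = 0.00426) and Ces2e fell (-0.26 ± 0.09, adjusted p = 0.0106). Of 21 organic ion and drug transporters 9 rose and 5 fell, and the median of 0.15 turned to -0.02 with total counts. The number that fell was 2 without vehicle replicate 2, 3 without vehicle replicate 1, 4 or 6 or GDF15 replicate 1, 2, 3 or 6, 4 without GDF15 replicate 5, and 5 without any other library. With all 12 libraries, 9 fell and 7 rose with total counts. Slco2a1, a prostaglandin transporter, stood at 423, 508 and 549 in the vehicle livers against 751, 1038 and 1366 in the GDF15 livers, without overlap (1.11 ± 0.14, adjusted p = 1.74e-12). Slc29a1, an equilibrative nucleoside transporter, rose (0.98 ± 0.13, adjusted p = 2.40e-11). Abcb1a, the P-glycoprotein, fell (-0.83 ± 0.25, adjusted p = 0.00559).

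Of 20 lipogenic genes tested 3 rose, or 5 without vehicle replicate 3, and 1 fell, and the median of 0.15 became -0.02 with total counts, when 3 rose and 4 fell. In replicates 1 to 3 of both groups 1 rose and 7 fell (median -0.20). With replicates 4 to 6 of both groups the list went the other way, with 10 higher and 1 lower (median 0.54). Fasn, fatty acid synthase, stood at 24277, 37169.5 and 59986 in the vehicle livers against 23624, 40371 and 76549 in the GDF15 livers. The ranges overlapped widely (0.17 ± 0.31, adjusted p = 0.721). GDF15 replicates 1 to 3 lay between 23624 and 27959 and replicates 4 to 6 between 52782 and 76549, a division that the labels do not name. Srebf1, the factor that drives the pathway, had 0.32 ± 0.17 (adjusted p = 0.13). Acss2, acetyl-CoA synthetase, rose (0.85 ± 0.27, adjusted p = 0.00858), and so did Mlxipl, the ChREBP carbohydrate sensor (0.52 ± 0.12, adjusted p = 1.63e-04). Dgat2, the last step of triglyceride synthesis, rose without overlap (0.54 ± 0.12, adjusted p = 6.86e-05). Elovl5, a fatty acid elongase, fell (-0.33 ± 0.13, adjusted p = 0.0342), a call lost without vehicle replicate 1, 2, 3 or 6 or GDF15 replicate 1, 2 or 3.

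Fatty acid oxidation and ketogenesis genes fell in 9 of 29 and rose in 3 (median -0.08). The number that rose was 1 without vehicle replicate 1 or GDF15 replicate 1, 2 or 3, and 5 without GDF15 replicate 4. In replicates 1 to 3 of both groups 4 fell and 7 rose (median 0.07). With replicates 4 to 6 of both groups 13 fell and none rose (median -0.31). Pdk4, the kinase that turns off pyruvate dehydrogenase, stood at 259.5, 626 and 975 in the vehicle livers against 112, 192 and 408 in the GDF15 livers, with overlap (-1.41 ± 0.45, adjusted p = 0.0083). Acot2, a mitochondrial thioesterase, fell (-1.21 ± 0.26, adjusted p = 3.78e-05), and Acaa1b, a peroxisomal thiolase, fell without overlap (-0.64 ± 0.11, adjusted p = 3.30e-07). Cpt1a, the carnitine transferase that limits mitochondrial oxidation, had -0.15 ± 0.16 (adjusted p = 0.501). Cyp4a14, a fatty acid omega-hydroxylase, rose (0.71 ± 0.23, adjusted p = 0.00872).

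Cholesterol synthesis genes rose in 5 of 24 and fell in none, with a median of 0.38. That count was 3 without GDF15 replicate 4 or 6, 8 without GDF15 replicate 3 or vehicle replicate 3, 9 without GDF15 replicate 2 and 10 without GDF15 replicate 1. Tm7sf2, a sterol reductase, stood at 1465, 2042 and 2329 in the vehicle livers against 2679, 3116 and 4350.0 in the GDF15 livers, without overlap (0.75 ± 0.17, adjusted p = 9.68e-05). Ebp and Nsdhl, enzymes of the late steps, rose without overlap (0.59 ± 0.11 and 0.57 ± 0.17).

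Bile acid genes rose in 8 of 23 and fell in 4 (median 0.19). Cyp7a1, the rate-limiting enzyme of bile acid synthesis, stood at 554, 1331 and 3702 in the vehicle livers against 1291, 1909.9 and 3752 in the GDF15 livers. The ranges overlapped widely (0.58 ± 0.57, adjusted p = 0.461). Cyp7b1, the hydroxylase of the alternative route, stood at 493, 783 and 1090.4 in the vehicle livers against 1295, 1714 and 3698 in the GDF15 livers. No GDF15 liver overlapped the vehicle range (1.38 ± 0.28, adjusted p = 1.48e-05). Slc10a1, the sinusoidal uptake transporter NTCP, and Abcb11, the canalicular export pump, rose without overlap (0.84 ± 0.21 and 0.68 ± 0.14). Slco1a1, an uptake carrier of bile acids and steroids, stood at 48.97, 134 and 1488 in the vehicle livers against 1144, 1934 and 10654 in the GDF15 livers. The upper vehicle value lay within the GDF15 range, and the highest value was that of GDF15 replicate 6 (3.25 ± 0.82, adjusted p = 5.68e-04, and 2.56 without it). Abcc4 and Abcc3, export pumps of the basolateral side, fell (-1.14 ± 0.29 and -0.49 ± 0.12). Nr1h4, the bile acid receptor FXR, had 0.07 ± 0.11 (adjusted p = 0.657).

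**Figure D3:**
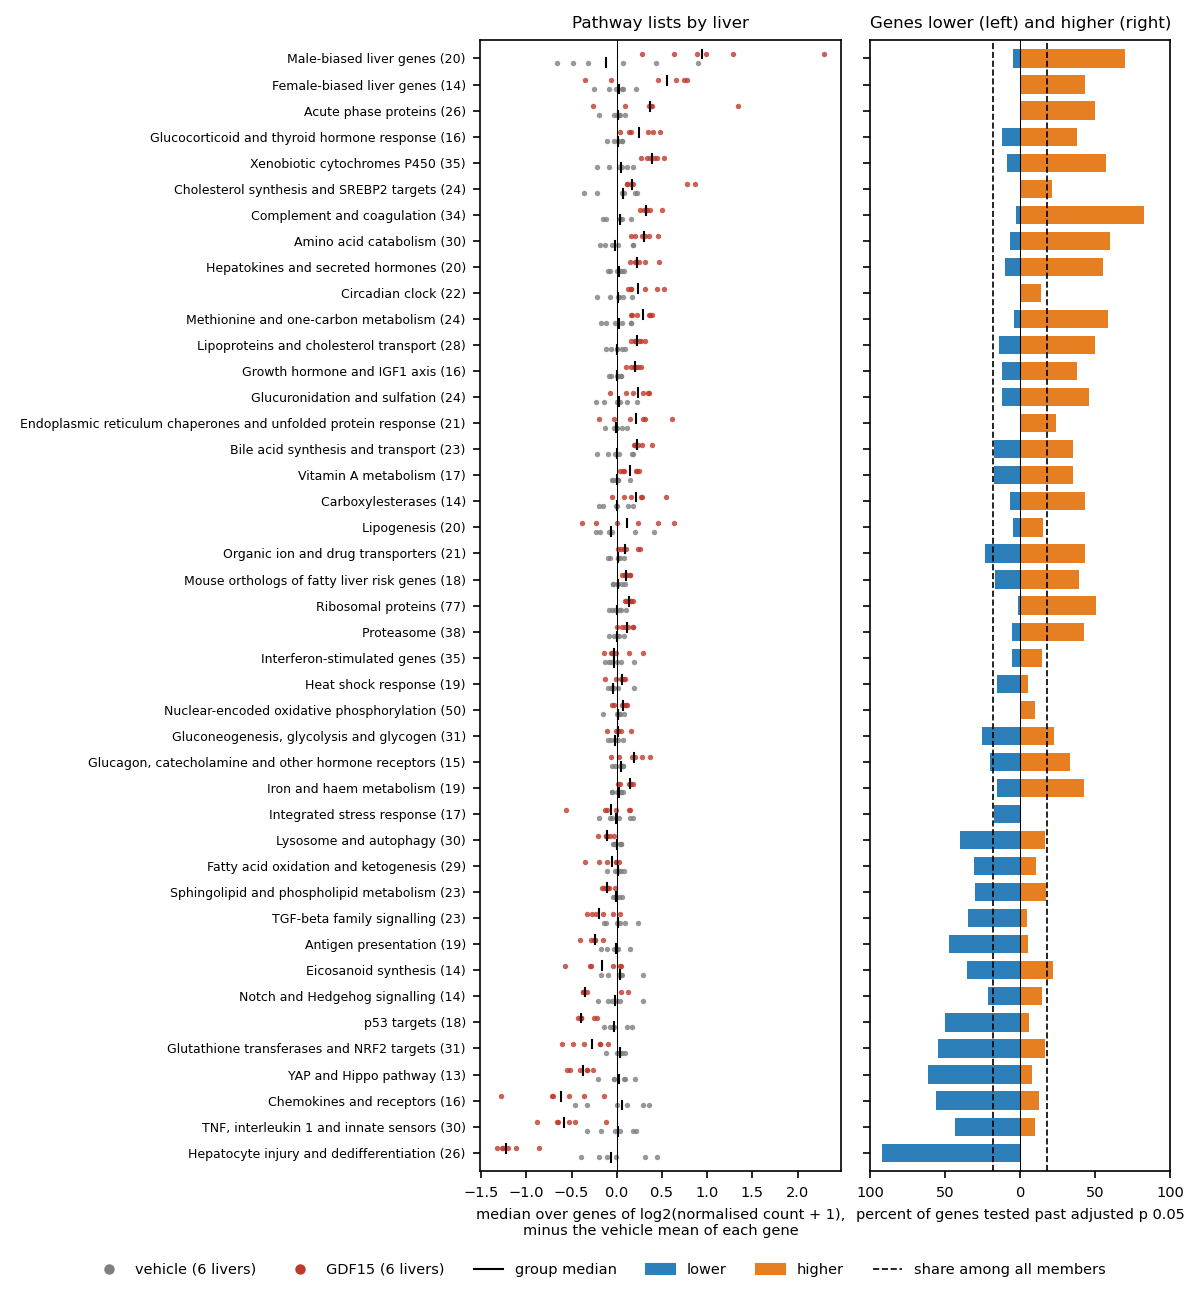
Left, median over the genes of each of 43 pathway lists of log2(normalised count + 1) minus the vehicle mean of each gene, 1 point per liver (grey vehicle, red GDF15), with the number of genes tested in brackets. Right, percent of those genes lower (left) and higher (right) at an adjusted p under 0.05, with dashed lines at the shares among all members (18.2% and 18%). Hepatocyte injury genes lie lowest and male-biased genes highest, and the many lists near 0 include those whose median turns sign with total count scaling, among them ribosomal proteins, proteasome and oxidative phosphorylation.

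Lipoprotein and cholesterol transport genes rose in 14 of 28 and fell in 4 (median 0.23). Apoa4, a chylomicron and HDL apolipoprotein, stood at 102173, 135394 and 180112 in the vehicle livers against 33035, 45492 and 59806 in the GDF15 livers. The lowest vehicle liver was above the highest GDF15 liver (-1.59 ± 0.16, adjusted p = 2.74e-20). Apoc2, the activator of lipoprotein lipase, fell without overlap (-0.72 ± 0.10, adjusted p = 6.63e-12). Lipc, hepatic lipase, rose (0.72 ± 0.09, adjusted p = 2.97e-14), and Lcat, which esterifies cholesterol on HDL, rose (0.61 ± 0.08, adjusted p = 4.34e-11). Apob, the structural protein of VLDL, had 0.03 ± 0.06 (adjusted p = 0.735), and Mttp, which loads it with lipid, had 0.13 ± 0.08 (adjusted p = 0.191).

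Sphingolipid and phospholipid genes fell in 7 of 23 and rose in 4 (median -0.14). Smpd3, a neutral sphingomyelinase that releases ceramide, stood at 433, 588 and 694 in the vehicle livers against 80.5, 135 and 280.0 in the GDF15 livers. The ranges stayed apart (-1.90 ± 0.23, adjusted p = 6.97e-15). Sptlc2, a subunit of the rate-limiting serine palmitoyltransferase, stood at 683, 761 and 787 in the vehicle livers against 447, 498 and 551 in the GDF15 livers, also without overlap (-0.59 ± 0.07, adjusted p = 1.77e-13). Pemt, which makes phosphatidylcholine from phosphatidylethanolamine, rose (0.29 ± 0.07, adjusted p = 1.69e-04). Eicosanoid genes fell in 5 of 14, or 3 without vehicle replicate 2, and rose in 3. Hpgds, a prostaglandin D synthase of blood cells, fell (-0.96 ± 0.22, adjusted p = 1.36e-04) while Ptgds, the lipocalin-type synthase, stood at 4.24, 8.73 and 12.8 in the vehicle livers against 25.7, 41.2 and 50.7 in the GDF15 livers and rose (2.15 ± 0.36, adjusted p = 6.05e-08).

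Genes of glucose and glycogen metabolism moved both ways, 8 of 31 lower and 7 higher, around a median of 0.05 (-0.11 with total counts). Hk2, the hexokinase of muscle and dedifferentiated cells, stood at 109, 218 and 244 in the vehicle livers against 21.7, 53.9 and 102 in the GDF15 livers. It fell without overlap (-1.85 ± 0.32, adjusted p = 1.70e-07), as did Pkm, the non-hepatic pyruvate kinase (-0.75 ± 0.14, adjusted p = 8.06e-07). Pck1, which limits gluconeogenesis, stood at 19693, 23434 and 41213 in the vehicle livers against 26699, 47063 and 80737 in the GDF15 livers, with overlap (0.88 ± 0.29, adjusted p = 0.0106), and G6pc, the last step, had 0.40 ± 0.40 (adjusted p = 0.464). Insr, the insulin receptor, rose without overlap (0.27 ± 0.06, adjusted p = 1.66e-04), and Ppargc1a, a coactivator of fasting genes, rose (0.77 ± 0.23, adjusted p = 0.0044).

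Amino acid catabolism genes rose in 18 of 30 and fell in 2 (median 0.35). Tat, tyrosine aminotransferase, a classic glucocorticoid target, stood at 7174, 9806 and 20907 in the vehicle livers against 13193, 23697 and 70252 in the GDF15 livers. The highest value was that of GDF15 replicate 4, and the log2 fold change of 1.40 ± 0.44, adjusted p = 0.00721 was 0.92 without that liver (adjusted p = 0.0266). Got1, cytosolic aspartate aminotransferase, stood at 2468, 3438 and 4591 in the vehicle livers against 4988, 6490.3 and 11694 in the GDF15 livers, without overlap (1.18 ± 0.22, adjusted p = 1.97e-06). Hpd, a dioxygenase of tyrosine breakdown, rose without overlap (0.94 ± 0.15), and so did Agxt, alanine-glyoxylate aminotransferase, and Prodh, proline dehydrogenase (0.83 ± 0.12 and 0.79 ± 0.14). Agxt2, a mitochondrial aminotransferase of beta-amino acids, fell (-0.46 ± 0.06, adjusted p = 3.37e-11).

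Methionine and folate-linked genes rose in 14 of 24 and fell in 1 (median 0.26). Gnmt, which uses up S-adenosylmethionine, stood at 12769, 17668 and 24627 in the vehicle livers against 29664, 31791 and 33418 in the GDF15 livers. All GDF15 livers were higher (0.79 ± 0.15, adjusted p = 5.87e-06). Ahcy, S-adenosylhomocysteine hydrolase, and Cbs, which commits homocysteine to cysteine, rose without overlap (0.86 ± 0.17 and 0.62 ± 0.13). Nnmt, nicotinamide N-methyltransferase, stood at 687, 869 and 1056 in the vehicle livers against 1328, 2152 and 3409.9 in the GDF15 livers (1.40 ± 0.22, adjusted p = 1.13e-08). Mat1a, the liver methionine adenosyltransferase, rose (0.39 ± 0.13, adjusted p = 0.0154, a call lost without vehicle replicate 1 or 2 or GDF15 replicate 2), and the fall was in Mthfd1l, a mitochondrial folate enzyme (-1.41 ± 0.26, adjusted p = 2.06e-06). Vitamin A genes rose in 6 of 17 and fell in 3 (3 and 5 with total counts), with Rbp4, the retinol carrier of plasma, higher (0.38 ± 0.09, adjusted p = 4.35e-04) and Rarb, a retinoic acid receptor, lower (-0.99 ± 0.18, adjusted p = 8.63e-07).

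**Figure D4:**
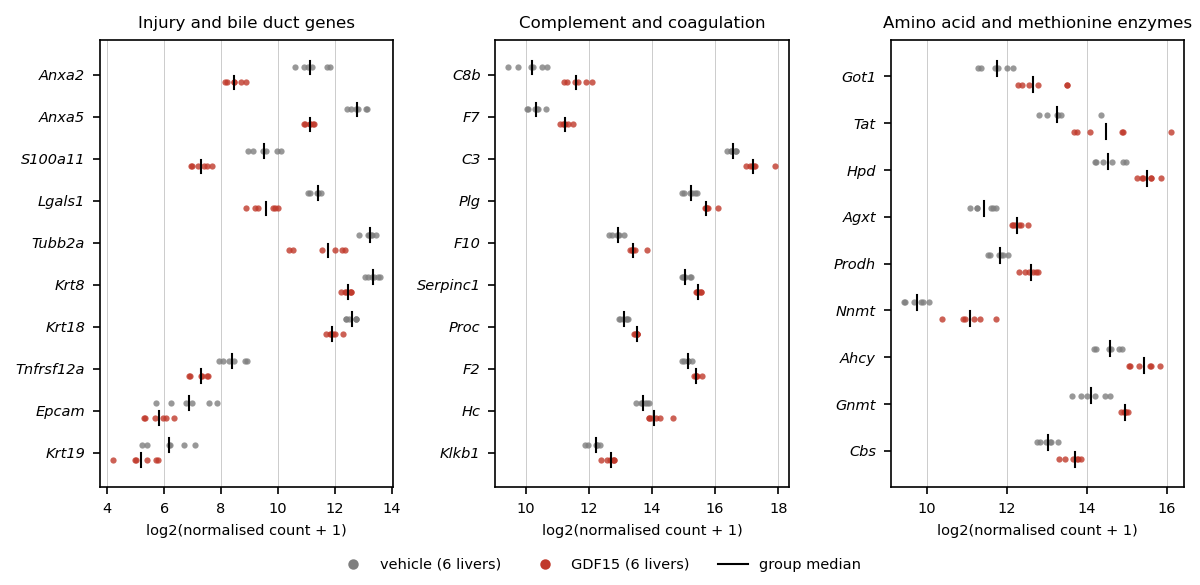
Normalised counts, as log2(count + 1) on the horizontal axis, of injury and bile duct genes, of complement and coagulation genes, and of amino acid and methionine enzymes, 1 point per liver (grey vehicle, red GDF15) with a tick at the group median. Groups do not overlap for most genes shown. Epcam, Krt19 and Tat are examples in which they do.

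The liver makes most complement and clotting proteins of plasma. Of 34 complement and coagulation genes 28 rose and 1 fell, with a median of 0.37, and 15 rose with total counts (median 0.20). C8b, a subunit of the membrane attack complex, stood at 699, 1164 and 1627 in the vehicle livers against 2387, 3090.4 and 4366 in the GDF15 livers. There was no overlap between the groups (1.47 ± 0.20, adjusted p = 1.35e-11). F7, the factor that starts the extrinsic pathway of clotting, stood at 1059.6, 1269 and 1593 in the vehicle livers against 2179.7, 2408 and 2919 in the GDF15 livers, without overlap (0.96 ± 0.11, adjusted p = 2.79e-15). C3, the central complement protein, rose (0.75 ± 0.12, adjusted p = 4.76e-08), with its highest value in GDF15 replicate 4, and 0.59 without that liver. F2, prothrombin, and Serpinc1, antithrombin, rose by less (0.31 ± 0.06 and 0.40 ± 0.06). The gene that fell was Pros1, the anticoagulant protein S (-0.26 ± 0.08, adjusted p = 0.0064).

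Acute phase genes rose in 13 of 26 and fell in none (median 0.49), and here GDF15 replicates 4 and 6 lay at opposite ends. Saa2 stood at 1953, 2906 and 3674 in the vehicle livers against 225, 2361 and 66104 in the GDF15 livers, and its log2 fold change of 2.17 ± 0.86, adjusted p = 0.0384 turned to -0.16 (adjusted p = 0.859) without GDF15 replicate 4, and its call was also lost without GDF15 replicate 2 or vehicle replicate 1, 2, 4, 5 or 6. Lcn2, lipocalin 2, ranged from 60.3 in GDF15 replicate 6 to 7558 in replicate 4, against 971 to 1844 in vehicle (0.30 ± 0.75, for which DESeq2 gave no adjusted p). Without GDF15 replicate 4 its log2 fold change was -1.36 (adjusted p = 0.0317). The fibrinogen chains Fga, Fgb and Fgg rose without overlap (0.69 ± 0.13, 0.73 ± 0.12 and 0.68 ± 0.12). For all of them GDF15 replicate 4 stood apart as the highest liver. Fga was at 165300 in it, against 87280 to 101700 in the other GDF15 livers. Il6ra, the interleukin 6 receptor, rose (0.99 ± 0.29, adjusted p = 0.00411), and so did Mt2, a metallothionein (1.95 ± 0.52, adjusted p = 0.00127). Without GDF15 replicate 4, 11 of the list rose and 4 fell, so the absence of falls rests on that liver.

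**Figure D5:**
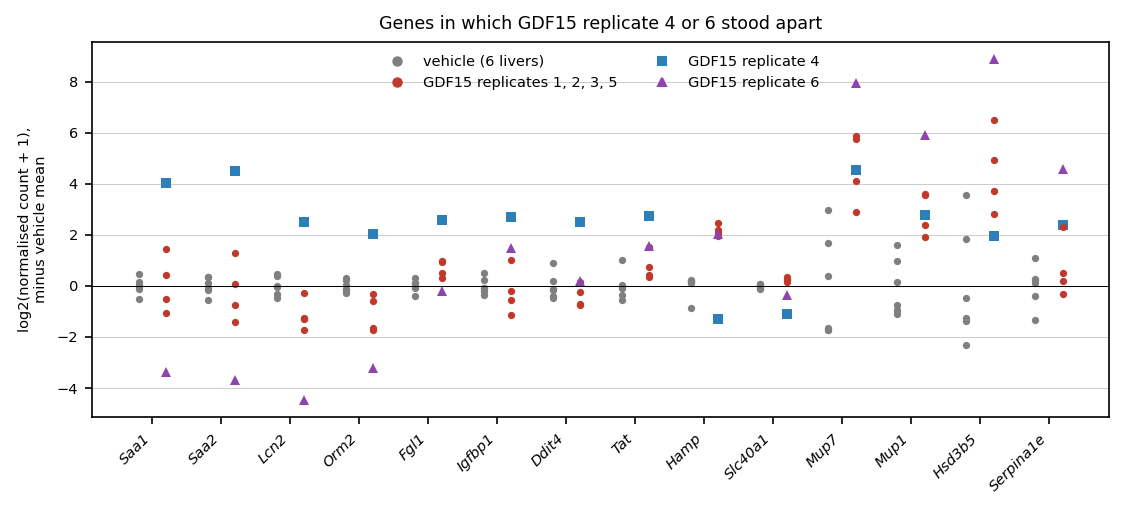
Log2(normalised count + 1) minus the vehicle mean, on the vertical axis, for 14 genes in which GDF15 replicate 4 (blue squares) or replicate 6 (purple triangles) lay at an end of the range, with the other GDF15 livers in red and the vehicle livers in grey, 1 point per liver. Replicate 4 is highest for the acute phase genes from Saa1 to Fgl1 and lowest for Hamp and Slc40a1, and replicate 6 is highest for Mup7, Mup1, Hsd3b5 and Serpina1e and lowest for Saa1, Saa2, Lcn2 and Orm2.

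Iron and haem genes rose in 8 of 19 and fell in 3, or 1 without vehicle replicate 2 or 4 or GDF15 replicate 2, around a median of 0.02 (-0.15 with total counts, when 4 rose and 7 fell). Hamp, which encodes hepcidin, the hormone that limits iron export, stood at 2479, 5148 and 5327 in the vehicle livers against 1873, 19131 and 25151 in the GDF15 livers. GDF15 replicate 4 was at 1873 and the other 5 GDF15 livers were above all vehicle livers (1.89 ± 0.47, adjusted p = 5.10e-04, and 2.12 without replicate 4). Hamp2 stood at 594, 1030.5 and 1152 in the vehicle livers against 1155, 2174 and 3748 in the GDF15 livers, at the edge of the vehicle range but without overlap (1.22 ± 0.34, adjusted p = 0.00227). Tfr2, an iron sensor of hepatocytes, rose (0.47 ± 0.08, adjusted p = 8.93e-08), and Slc39a14, a zinc and iron importer, rose (0.57 ± 0.09, adjusted p = 6.08e-08). Fth1, ferritin heavy chain, fell (-0.23 ± 0.06, adjusted p = 8.67e-04), and Slc40a1, ferroportin, had 0.01 ± 0.18 (adjusted p = 0.972). Among 20 hepatokines and secreted hormones 11 rose and 2 fell. Gpnmb, a membrane glycoprotein also made by lipid-laden macrophages, stood at 138, 279 and 348 in the vehicle livers against 12.1, 38.4 and 78.5 in the GDF15 livers (-2.60 ± 0.45, adjusted p = 2.53e-07). Tff3, trefoil factor 3, and Enho, adropin, rose (1.52 ± 0.43 and 1.33 ± 0.38).

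Growth hormone and IGF1 genes rose in 6 of 16 and fell in 2. Igfbp2, an IGF binding protein, stood at 2800.4, 3872 and 4214 in the vehicle livers against 8156, 9895 and 11694 in the GDF15 livers. The gap between the groups was wide (1.41 ± 0.16, adjusted p = 6.97e-16). Igf1 rose (0.49 ± 0.12, adjusted p = 3.41e-04), Ghr, the growth hormone receptor, rose without overlap (0.29 ± 0.08, adjusted p = 0.00115), and Igfbp3 fell (-0.66 ± 0.13, adjusted p = 1.37e-05). Cish and Socs2, feedback inhibitors switched on by growth hormone pulses, had -0.10 ± 0.72 and 0.04 ± 0.59 (adjusted p = 0.937 and 0.969). Igfbp1 had 1.13 ± 0.53 (adjusted p = 0.0861), with 9044 in GDF15 replicate 4.

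Of 20 male-biased liver genes 14 rose and 1 fell (median 1.24), and 9 rose when GDF15 replicate 6 was left out. In replicates 1 to 3 of both groups 2 rose (median 0.56), and 13 rose in replicates 4 to 6 (median 1.42). Hsd3b5, a male-specific steroid dehydrogenase, stood at 0, 1.80 and 58.2 in the vehicle livers against 17.98, 108 and 2361 in the GDF15 livers. Vehicle replicate 3, at 58.2, was the one vehicle liver inside the GDF15 range (5.28 ± 1.22, adjusted p = 1.42e-04). The highest GDF15 value was that of replicate 6, and without it the log2 fold change was 3.44 (adjusted p = 0.0134). Mup7 ranged from 359 to 9405 across vehicle livers and from 8974 to 294185 across GDF15 livers, with vehicle replicate 3 above the lowest GDF15 liver (4.93 ± 1.00, adjusted p = 1.22e-05, and 3.86 without GDF15 replicate 6). Elovl3, a male-biased elongase, rose (1.53 ± 0.52, adjusted p = 0.0129, a call lost without GDF15 replicate 6), and Mup20, darcin, fell (-0.75 ± 0.21, adjusted p = 0.00258). Of 14 female-biased genes 6 rose and none fell (median 0.53). A1bg stood at 1.81, 5.10 and 6.36 in the vehicle livers against 21.7, 32.1 and 72.7 in the GDF15 livers, without overlap (3.04 ± 0.42, adjusted p = 7.26e-11), Prlr, the prolactin receptor, rose (1.19 ± 0.18, adjusted p = 2.65e-09), and Lifr, the receptor of leukaemia inhibitory factor, rose (0.88 ± 0.17, adjusted p = 2.84e-06).

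Glucocorticoid and thyroid hormone response genes rose in 6 of 16 and fell in 2 (median 0.41). Fkbp5, an immunophilin induced by glucocorticoids, stood at 539, 631 and 850.3 in the vehicle livers against 827, 1595 and 2887 in the GDF15 livers, with overlap (1.32 ± 0.30, adjusted p = 1.02e-04). Hsd11b1, which regenerates active glucocorticoid in the liver, stood at 5537, 6722 and 8769.9 in the vehicle livers against 9896, 11753 and 12681 in the GDF15 livers, without overlap (0.75 ± 0.14, adjusted p = 7.77e-07). Klf15 rose (0.77 ± 0.19, adjusted p = 2.82e-04), and Gpd2, a thyroid-responsive glycerophosphate dehydrogenase, fell (-0.34 ± 0.08, adjusted p = 1.68e-04). Dio1, the hepatic deiodinase, had -0.11 ± 0.08 (adjusted p = 0.304). Of 15 receptors for glucagon, catecholamines and other hormones 5 rose and 3 fell, with a median of 0.04 that became -0.14 with total counts. Gcgr, the glucagon receptor, rose without overlap (0.26 ± 0.06, adjusted p = 5.45e-05). Adrb3, a beta-adrenergic receptor, rose (0.55 ± 0.16, adjusted p = 0.00263), and Nr4a2, an immediate-early nuclear receptor, fell (-0.90 ± 0.23, adjusted p = 5.55e-04).

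Of 22 circadian clock genes tested 3 rose and none fell (median 0.29), and none passed with total counts. Cry1, a repressor of the clock, stood at 66.7, 90.6 and 149 in the vehicle livers against 106, 157 and 238 in the GDF15 livers. The ranges overlapped (0.71 ± 0.24, adjusted p = 0.0129), and the call was lost without GDF15 replicate 5. Arntl, the core activator BMAL1, had 0.11 ± 0.60 (adjusted p = 0.914), and Dbp, an output gene, had 0.34 ± 0.39 (adjusted p = 0.532). The 250 bases upstream of the Cry1 start are shown because they hold CACGTG, the E-box to which BMAL1 and CLOCK bind, in capitals, at chr10:85185055-85185304 on the minus strand of GRCm38.p6 (RefSeq), written 5′ to 3′ along the gene.
Cry1: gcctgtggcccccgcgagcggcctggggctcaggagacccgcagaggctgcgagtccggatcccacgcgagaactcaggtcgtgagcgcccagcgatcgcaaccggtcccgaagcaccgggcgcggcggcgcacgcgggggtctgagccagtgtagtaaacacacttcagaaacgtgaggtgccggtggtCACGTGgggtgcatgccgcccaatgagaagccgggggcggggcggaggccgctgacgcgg
CACGTG was found on either strand of this window in 5 of 18 clock genes with a listed promoter (27.8%) and in 6.86% of the 27025 genes in the reference, and 1 of those 5 clock genes rose. TTATGTAA, the D-box letters, were in 1 clock gene, Per3, and in 0.977% of all genes.

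The integrated stress response, through which ATF4 turns on amino acid and hormone genes, gave 3 falls and no rise among 17 genes (median -0.03). Atf3, a stress-induced transcription factor, stood at 84.4, 153 and 193 in the vehicle livers against 36.2, 56.9 and 80.5 in the GDF15 livers. The 2 ranges did not meet (-1.37 ± 0.23, adjusted p = 5.62e-08). Fgf21, a fasting and stress hormone of the liver, stood at 216, 294 and 413 in the vehicle livers against 87.99, 138 and 284 in the GDF15 livers (-0.96 ± 0.28, adjusted p = 0.00323), and Nupr1, a stress-induced nuclear protein, at 65.5, 146 and 211 in the vehicle livers against 50.3, 59.1 and 97.6 in the GDF15 livers (-1.13 ± 0.25, adjusted p = 5.44e-05). In both, the lower vehicle livers met the upper GDF15 livers. Endogenous Gdf15 had -0.27 ± 0.40 (adjusted p = 0.643), Atf4 had 0.15 ± 0.11 (adjusted p = 0.312) and Ddit3, the CHOP factor, had -0.11 ± 0.17 (adjusted p = 0.649). Fgf21 and Nupr1 were the 2 of 15 listed promoters that held TGATGNAAT, the letters of the C/EBP-ATF response element, on either strand within 250 bases of the start (13.3%, against 0.91% of all genes). Their windows, at chr7:45615491-45615740 and chr7:126625471-126625720, both on the minus strand of GRCm38.p6, are given with those letters in capitals.
Fgf21: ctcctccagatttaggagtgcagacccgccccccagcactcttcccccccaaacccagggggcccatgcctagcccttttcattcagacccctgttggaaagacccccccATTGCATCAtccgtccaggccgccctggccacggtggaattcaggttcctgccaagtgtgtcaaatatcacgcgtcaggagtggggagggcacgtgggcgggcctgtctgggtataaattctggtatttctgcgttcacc
Nupr1: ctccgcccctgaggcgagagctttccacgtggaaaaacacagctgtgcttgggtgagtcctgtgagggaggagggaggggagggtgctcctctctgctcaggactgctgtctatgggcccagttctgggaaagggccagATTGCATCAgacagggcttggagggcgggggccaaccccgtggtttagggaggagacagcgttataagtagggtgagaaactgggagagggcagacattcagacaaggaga
The letters begin 140 bases before the start of Fgf21 and 111 bases before that of Nupr1.

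Chaperones of the endoplasmic reticulum rose in 5 of 21 and fell in none (median 0.19), a count that ran from 3 without GDF15 replicate 4 or 5 or without vehicle replicate 1, 2, 4 or 5 to 10 without GDF15 replicate 3. Hspa5, the chaperone BiP, had 0.12 ± 0.20 (adjusted p = 0.701), and Herpud1, a degradation factor, rose (0.64 ± 0.16, adjusted p = 3.97e-04). Heat shock genes fell in 3 of 19 and rose in 1, and their median of 0.06 became -0.11 with total counts. Hspb1, a small heat shock protein that binds the cytoskeleton, stood at 831, 1286 and 1831 in the vehicle livers against 474, 588 and 795 in the GDF15 livers. It fell without overlap (-1.11 ± 0.23, adjusted p = 2.77e-05), whereas Hsf1, the factor that drives the response, had 0.17 ± 0.07 (adjusted p = 0.0544). The heat shock element, read as GAA, TTC and GAA with 2 bases between each on either strand, was in 2 of 14 promoters of this list (14.3%, against 0.514%), Hspd1 and Hspe1, and neither gene passed (0.06 ± 0.05 and 0.06 ± 0.07, adjusted p = 0.408 and 0.551).

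Targets of p53, the damage-sensing factor, fell in 9 of 18 and rose in 1 (median -0.27). Phlda3, an inhibitor of AKT, stood at 57.02, 105 and 151 in the vehicle livers against 19.4, 31.3 and 40.7 in the GDF15 livers. No vehicle liver reached the GDF15 range (-1.79 ± 0.27, adjusted p = 2.90e-09). Eda2r and Tnfrsf10b, receptors of the TNF family, fell without overlap (-1.49 ± 0.27 and -1.25 ± 0.26), and Bax, a mitochondrial death effector, fell (-0.37 ± 0.11, adjusted p = 0.00371). Cdkn1a, the p21 cell cycle inhibitor, stood at 334, 459 and 1008 in the vehicle livers against 89.1, 209.7 and 501 in the GDF15 livers and did not pass (-1.10 ± 0.49, adjusted p = 0.0678). Trp53 itself had -0.07 ± 0.06 (adjusted p = 0.443).

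Genes of YAP, the growth-promoting coactivator held off by Hippo kinases, fell in 8 of 13 and rose in 1 (median -0.53). Ajuba, an adaptor that restrains Hippo kinases, stood at 199, 277 and 358 in the vehicle livers against 74.04, 109 and 146 in the GDF15 livers, without overlap (-1.34 ± 0.19, adjusted p = 3.03e-10). Ankrd1 and Ccn1, direct YAP targets, fell (-1.98 ± 0.51 and -0.77 ± 0.22). Ankrd1 was low, at 1.02 in GDF15 replicate 3 and 7.23 to 17.98 in the other GDF15 livers. Yap1 had -0.08 ± 0.04 (adjusted p = 0.104), and Nuak2 rose without overlap (0.74 ± 0.14, adjusted p = 1.38e-06). Notch and Hedgehog genes fell in 3 of 14 and rose in 2. Heyl, a Notch target, fell without overlap (-0.90 ± 0.21), and Jag1, a Notch ligand, fell (-0.59 ± 0.15, adjusted p = 5.21e-04). TGF-beta family genes fell in 8 of 23 and rose in 1, with 5 falls without vehicle replicate 1 or GDF15 replicate 3. Tgfbr2, the type II receptor, stood at 960.1, 1067 and 1127 in the vehicle livers against 473, 549.7 and 738 in the GDF15 livers, without overlap (-0.87 ± 0.09, adjusted p = 7.85e-19). Tgfb1, the main ligand, fell (-0.58 ± 0.13, adjusted p = 1.38e-04), and Smad3, the transducer, had -0.04 ± 0.11 (adjusted p = 0.822).

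TNF and interleukin 1 act through NF-kappaB to turn on inflammatory genes. Of 30 genes of TNF, interleukin 1 and innate sensing 13 fell and 3 rose (median -0.65). Cd14, the endotoxin co-receptor, stood at 101, 183 and 231 in the vehicle livers against 20.5, 52.2 and 71.1 in the GDF15 livers. The 6 GDF15 values lay apart from the 6 vehicle values (-1.75 ± 0.29, adjusted p = 6.22e-08). Tlr2 and Tlr1, the lipoprotein sensors, and Relb and Nfkb2, subunits of the alternative NF-kappaB pathway, fell without overlap (-1.34 ± 0.21, -1.30 ± 0.20, -1.27 ± 0.24 and -0.73 ± 0.12). Il1r1, the interleukin 1 receptor, rose without overlap (0.99 ± 0.17, adjusted p = 1.40e-07), Il18 rose (0.59 ± 0.10, adjusted p = 2.02e-07), and Il1b had -0.81 ± 0.39 (adjusted p = 0.0972). The monocyte list fell in the same livers and its part in these falls was not tested. Tnf was under the counting rule, at 2.33 to 12.5 in the vehicle livers and 0 to 9.09 in the GDF15 livers.

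Of 16 chemokines and receptors tested 9 fell and 2 rose (median -0.63). Ccl2, the ligand of CCR2, stood at 38.4, 73.5 and 103 in the vehicle livers against 5.14, 9.73 and 31.2 in the GDF15 livers. Every GDF15 liver was below every vehicle liver (-2.43 ± 0.42, adjusted p = 1.69e-07). Cxcl14 and Cx3cl1, which attract monocytes, fell without overlap (-1.50 ± 0.24 and -1.27 ± 0.28), whereas Cxcl12, a homeostatic chemokine, stood at 5018, 5172 and 5517 in the vehicle livers against 6415, 6628 and 8038 in the GDF15 livers and rose (0.41 ± 0.09, adjusted p = 4.31e-05). Antigen presentation genes fell in 9 of 19 and rose in 1, and the falls included 7 of the 8 class II genes tested. Dendritic cell and monocyte genes fell in the same livers, as given above, and their part in these falls was not tested. H2-Aa stood at 876, 1251 and 1801 in the vehicle livers against 358, 579 and 874 in the GDF15 livers. The ranges just missed each other (-1.15 ± 0.21, adjusted p = 9.36e-07), and Ciita, the switch that class II genes depend on, fell (-1.01 ± 0.25, adjusted p = 5.25e-04). Class I genes B2m and H2-K1 had -0.04 ± 0.05 and 0.08 ± 0.06 (adjusted p = 0.641 and 0.257).

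Interferon-stimulated genes rose in 5 of 35 and fell in 2, below the shares among all genes in both directions, and their median of 0.07 turned to -0.11 with total counts, when 4 rose and 10 fell. The number that rose was 8 without GDF15 replicate 2, and the number that fell was 4 without GDF15 replicate 1 and 5 without GDF15 replicate 4. Cxcl10, an interferon-gamma induced chemokine, stood at 96.6, 107 and 169.8 in the vehicle livers against 39.8, 57.00 and 91.9 in the GDF15 livers. It fell without overlap (-0.87 ± 0.20, adjusted p = 1.54e-04). Ifit2, a translation inhibitor, fell with some overlap (-0.80 ± 0.17, adjusted p = 5.00e-05). Irf9 and Stat2, subunits of the factor ISGF3, rose (0.35 ± 0.07 and 0.31 ± 0.07). The window upstream of Cxcl10 is shown for the interferon-stimulated response element, read as a pair of GAAA with 2 bases between on either strand and set in capitals, at chr5:92348890-92349139 on the minus strand of GRCm38.p6.
Cxcl10: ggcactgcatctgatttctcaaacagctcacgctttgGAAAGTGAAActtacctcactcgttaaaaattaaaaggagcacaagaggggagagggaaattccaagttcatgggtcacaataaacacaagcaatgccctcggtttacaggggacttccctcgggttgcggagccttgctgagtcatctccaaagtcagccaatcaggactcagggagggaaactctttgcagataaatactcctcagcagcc
The element was in 14 of 26 interferon genes with a listed promoter (53.9%) and in 3.46% of all genes, and of the 14 holders 2 rose and 1 fell. Antioxidant response letters TGACNNNGC were in 7 of 27 glutathione and NRF2 genes (25.9%, against 11.5%), and of these 7 holders 2 rose and 1 fell. Sterol element letters TCACNCCAC were in 1 of 16 cholesterol genes (6.25%, against 1.23%), Hmgcs1, which was not called. The full palindromic HNF1 site was in 0 of 25 complement and coagulation genes. Only 3 of the 27025 genes in the reference held it (0.0111%), so this count could hardly differ from 0. It says nothing about less exact HNF1 sites, which were not searched.

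Of 50 nuclear-encoded oxidative phosphorylation genes tested 5 rose and none fell, under the 18% of all genes that rose, and log2 fold changes ran from -0.15 to 0.22 around a median of 0.05 (-0.12 with total counts, when 23 fell). Leaving out vehicle replicate 3 gave 8 rises, and leaving out GDF15 replicate 2 gave 3 falls. Ndufb5, a complex I subunit, stood at 1262, 1405 and 1492 in the vehicle livers against 1526, 1644 and 1674 in the GDF15 livers. The separation was narrow (0.22 ± 0.06, adjusted p = 0.0012). Ribosomal protein genes rose in 39 of 77 and fell in 1, by a median of 0.13 that became -0.04 with total counts, when 3 rose and 7 fell. Proteasome genes rose in 16 of 38 and fell in 2, by a median of 0.11 that became -0.06 with total counts, when 2 rose and 9 fell. The number of proteasome genes that rose was 9 without vehicle replicate 1 or GDF15 replicate 6 and 10 without vehicle replicate 2 or GDF15 replicate 4. Psmd8, a lid subunit, went the other way and fell without overlap (-0.64 ± 0.09, adjusted p = 8.73e-12).

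Lysosome and autophagy genes fell in 12 of 30 and rose in 5 (median -0.07). Monocyte and dendritic cell genes, which fell in 7 of 13 and 4 of 8, moved in the same livers, and their part in these falls was not tested. Ctsk, a collagen-degrading cathepsin, stood at 23.3, 41.8 and 89.4 in the vehicle livers against 5.12, 13.3 and 16.9 in the GDF15 livers. Vehicle and GDF15 livers did not overlap (-2.06 ± 0.36, adjusted p = 3.23e-07). Ctss, a cathepsin of antigen-presenting cells, fell (-0.93 ± 0.19, adjusted p = 2.08e-05), and Gusb, beta-glucuronidase, fell without overlap (-0.58 ± 0.06, adjusted p = 1.42e-22). Ulk1, the kinase that starts autophagy, rose (0.50 ± 0.12, adjusted p = 1.81e-04), and Tfeb, the regulator of lysosome genes, had 0.06 ± 0.14 (adjusted p = 0.766). Of 18 mouse orthologs of fatty liver risk genes 7 rose and 3 fell, around a median of 0.14 (-0.04 with total counts, when 3 rose and 7 fell). Serpina1a, an alpha-1-antitrypsin gene, stood at 45540.2, 58432 and 69053 in the vehicle livers against 88333, 93653 and 105005 in the GDF15 livers, without overlap (0.77 ± 0.10, adjusted p = 8.23e-12). Tm6sf2, a lipoprotein secretion gene, rose without overlap (0.53 ± 0.12, adjusted p = 7.93e-05), Lyplal1 fell without overlap (-0.48 ± 0.09, adjusted p = 2.24e-06), and Pnpla3 had 0.98 ± 0.55 (adjusted p = 0.167).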

How the data were processed

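RNA from 18 livers was sequenced as paired reads, and the 6 GDF15 and 6 vehicle livers are compared here. The deposited table holds estimated counts per gene, which the authors made with Trim Galore, Salmon and the mm10 build, as named in the submitters' processing notes. Tool versions and the transcript set are not given in the sources used here. The values are whole numbers in the file and needed no further rounding. Library totals ran from 16508864 to 25001486, and this depth limits genes under the counting rule.

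Groups were taken from the sample labels. DESeq2 1.42.0 in R 4.3.3 was fitted to all 16245 genes and all 3 groups, so that the 6 pair-fed livers share in the estimate of spread, with median-of-ratios size factors. GDF15 was tested against vehicle by the two-sided Wald test with no shrinkage of fold changes. Benjamini-Hochberg adjustment was over the table with independent filtering on mean count. A gene was called at an adjusted p under 0.05. Each replicate is labelled as a liver sample of its own. Members are genes that reached 10 counts or more in 6 or more of the 12 libraries. Alternatives used edgeR 4.0.16, other scalings, fewer libraries and a replicate block. The fitting script was tested on simulated counts.

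Genes were placed in 64 lists (21 of cell types, 43 of pathways, 1451 names of which 1416 matched the table), and 1256 members fall in at least 1 list while 11560 fall in none. The members and lists were chosen with earlier results of these data known. Named genes were to be the 12 largest falls and 12 largest rises without overlap and with a mean of at least 100 counts, up to 4 called members of each list with a mean of at least 20 and the largest change, and the defining members of each list. The first 2 parts of this rule give 232 genes, of which 154 are named. A further 115 genes were named as defining members or were chosen after their values were seen. Some genes that fit the rule are not reported here. Promoter sequences are those of RefSeq on GRCm38.p6, matched by symbol.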

Additional observations from a re-analysis of the deposited data

Results flagged for a closer look

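In each group of 6 livers the gap between the highest or lowest value and its neighbour was divided by the group's range, and a share above Dixon's 95% limit for 6 samples marks a liver that stands apart. Chance alone marks about 1 in 20 groups. Of 538 groups, for 269 named genes, 33 (6.13%) passed. The share follows each gene. GDF15 replicate 3 was the lowest liver for Ankrd1 (0.627). GDF15 replicate 4 was the highest liver for F2 (0.647), C3 (0.673), Tfr2 (0.729), Fgg (0.732), Fgb (0.756) and Fga (0.76) and the lowest liver for Aldh3a2 (0.653), Acaa1b (0.712), Ndufb5 (0.728), Nfe2l2 (0.73), Acta2 (0.737), Fcna (0.792), Ecm1 (0.815), Plvap (0.848) and Hamp (0.868). GDF15 replicate 5 was the highest liver for Ugdh (0.637) and the lowest liver for Psmd8 (0.718). GDF15 replicate 6 was the lowest liver for Cd14 (0.66) and Tlr1 (0.699). Vehicle replicate 1 was the highest liver for Stab2 (0.626) and the lowest liver for H2-K1 (0.695). Vehicle replicate 2 was the lowest liver for Hamp (0.887). Vehicle replicate 3 was the lowest liver for Aldh3a2 (0.762). Vehicle replicate 5 was the lowest liver for Hamp2 (0.715). Vehicle replicate 6 was the lowest liver for Axin2 (0.633) and Jag1 (0.754) and the highest liver for Tat (0.64), Il6ra (0.688), Fcna (0.692), B2m (0.7), G6pc (0.702) and Klf15 (0.705).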

How the results depend on the processing

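Past both thresholds, total count library sizes gave 853 lower genes, and placing the fold threshold inside the Wald test gave 54 lower and 7 higher. At the adjusted p alone, total count sizes gave 4607 lower and 711 higher, replicates 1 to 3 gave 1526 lower and 1407 higher, and replicates 4 to 6 gave 1374 lower and 1184 higher, with fewer samples in those fits. Leaving out 1 library at a time gave 449 to 657 lower and 108 to 136 higher past both thresholds, and 1939 to 2370 lower and 1837 to 2330 higher at the adjusted p alone. The other counts over all genes stayed within 1.5 times the reported ones. Among named genes called with either setting, log2 fold changes changed sign for Saa2 (-0.071 in replicates 1 to 3, and -0.16 to 2.43 when 1 library was left out, lowest without GDF15 replicate 4 and highest without GDF15 replicate 6), for Lcn2 (-1.36 to 0.56) and Orm2 (-1.20 to 0.31) between the same 2 libraries, and for Fasn (-0.76), Pnpla3 (-1.23) and Serpina1e (-0.14) in replicates 1 to 3, and Gclm (-0.17) with total counts, and the cause was not tested. With total counts a further 18 named genes that neither scaling called changed sign, all within 0.169 of 0 as reported, and 10 named genes lost their call (Cry1, Gcgr, Ghr, Insr, Mat1a, Ndufb5, Nr1i3, Pemt, Saa2 and Zap70) while 10 gained one. Replicate numbers did not pair the samples: deviations of same-numbered vehicle and GDF15 livers correlated at -0.191 to 0.279 (mean 0.00578), 2 of 6 over 0.1, and 1 sample correlated best with its own number. With the replicate block 563 genes were lower and 117 higher past both thresholds, and 2220 and 2084 at the adjusted p alone. Under it Cyp4a14, Nr1i3 and Saa2 lost their call, Acta2 and Cdkn1a gained one, and 5 list counts moved by over 1.5 times, among them the cholesterol synthesis rises, from 5 to 13 of 24. Of 128 list counts, 76 stayed within 1.5 times with total counts and 125 with edgeR.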
